A study of Caenorhabditis elegans with 2 samples.

Results

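The genes described here are the nuclear protein-coding genes of Caenorhabditis elegans whose symbols begin with nuo-, cox-, cyc-, atp-, isp-, sdha-, sdhb-, sdhc- or sdhd-. They were chosen by symbol, by a rule set with earlier results of these data known, and 34 of 19973 nuclear protein-coding genes met it. The study mapped where the bZIP protein CEBP-2 sits on chromatin by chromatin immunoprecipitation and sequencing in whole young adults, aged 64 h and synchronised as starved L1 larvae after bleaching. The 1 group holds 2 biological replicates of strain OP331, which carries the integrated transgene wgIs331 (cebp-2, C48E7.11, fused to TY1, EGFP and 3xFLAG) with unc-119(+) in an unc-119(ed3) background. The immunoprecipitation used an antibody against GFP, so the binding of the transgene product in all tissues together was measured, in 1 transgenic line. No control immunoprecipitation and no expression data were analysed here. The files give peaks and not counts of reads, so the depth of each library is unknown.

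The respiratory chain passes electrons from NADH and succinate through complexes I to III, cytochrome c and complex IV to oxygen. The proton gradient built on the way drives ATP synthesis by complex V. Most of its subunits are encoded in the nucleus and imported into mitochondria, and a few are encoded by mitochondrial DNA. C/EBP proteins are transcription factors that bind DNA as dimers and are known for roles in metabolism, immunity and stress responses. In C. elegans, nuo genes encode subunits of complex I, the sdh genes subunits of complex II, isp-1 and cyc-1 the Rieske iron-sulfur protein and cytochrome c1 of complex III, and cyc-2.1 and cyc-2.2 cytochrome c. The cox genes encode subunits or assembly factors of complex IV and the atp genes subunits of complex V, the ATP synthase.

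Of the 34 genes, 6 had a summit of the main thresholded list in the promoter window, which begins 1000 bp before the gene's 5' end and stops 200 bp past it. They were cox-6A, cox-5B, cox-11 and cox-5A of complex IV, cyc-2.1 for cytochrome c and sdhd-1 of complex II. This is 17.6% of the genes, against 2.36% of all nuclear protein-coding genes (471 of 19973). The main list was made by the authors from the pair of replicates. In their conservative list, 4 of the 34 genes had a summit (11.8%, against 1.95% of all genes): cox-6A, cox-5B, cox-5A and cyc-2.1. The lists called on 1 replicate were shorter (254 peaks in replicate 1 and 386 in replicate 2, against 1419 in the main list). They held few of the 34 genes. In the own list of replicate 1 none of the 34 had a summit, where 0.556% of all genes had one, and in that of replicate 2 only cox-6A had one (2.94%, against 0.791%). Since the genes were picked with earlier results of these data known, the counts are descriptions and no test of the group was made.

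**Figure D1:**
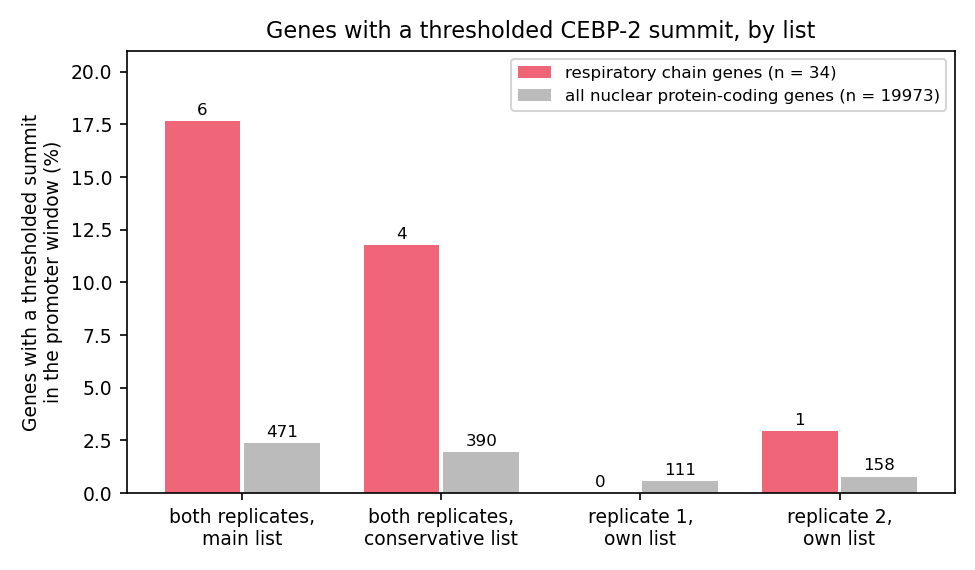
Share of genes (%) with a thresholded CEBP-2 summit in the promoter window, in the 4 thresholded lists, for the 34 respiratory chain genes (red) and for all 19973 nuclear protein-coding genes (grey). Numbers above the bars are gene counts, which are 6, 4, 0 and 1 for the respiratory chain genes. The share above the background in the lists of both replicates thus rests on few genes. The own list of replicate 1 called 0.556% of all genes, so a count of 0 among 34 cannot show whether their share differs there.

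The sequence under 4 of the thresholded summits is shown because it tells what else lies there, with up to 50 bp to either side of the summit. It was read from the RefSeq genome WBcel235, the same assembly as ce11, on the strand of the named gene. Capitals mark bases in an annotated exon of any gene, and bases of untranslated regions were left out, which shortens the stretch at cyc-2.1.
cox-11, chrIV:13243908-13244008, plus strand: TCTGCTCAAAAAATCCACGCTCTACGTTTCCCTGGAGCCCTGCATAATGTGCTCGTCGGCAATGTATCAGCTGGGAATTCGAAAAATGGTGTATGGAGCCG
cox-5A, chrIII:12905096-12905196, plus strand: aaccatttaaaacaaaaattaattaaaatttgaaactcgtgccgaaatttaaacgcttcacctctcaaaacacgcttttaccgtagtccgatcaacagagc
cyc-2.1, chrIV:4748905-4748967, minus strand: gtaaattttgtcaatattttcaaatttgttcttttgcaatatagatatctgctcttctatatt
sdhd-1, chrII:11049744-11049844, minus strand: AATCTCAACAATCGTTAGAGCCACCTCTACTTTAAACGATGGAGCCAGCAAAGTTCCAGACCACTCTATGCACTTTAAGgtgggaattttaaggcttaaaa
The capitals at cox-11 belong to the neighbouring gene JC8.4 and those at sdhd-1 to sdhd-1 itself. At cox-5A no annotated gene overlaps the peak, and at cyc-2.1 the stretch is intronic.

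Complex IV, cytochrome c oxidase, is the terminal enzyme of the chain. Of its 15 genes 4 had a thresholded summit, where 2.36% of all genes had one. Of the 7 genes for structural subunits 3 did, and of the 8 for assembly factors 1 did. This difference rests on few genes and was not tested. The signal value of a peak is the peak caller's own, in a unit that is not stated, so it ranks peaks within a list and is not compared between lists. The score of a peak is higher where its rank is more reproducible, with a ceiling of 1000, and 830 was the lowest score in every thresholded list. A peak can have different scores in the ranked lists behind the main and the conservative list. At sdhd-1 these were 858 and 348, so a main-list score is not read here as agreement of the 2 replicates.

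cox-6A, a nuclear-encoded subunit of complex IV, had the highest signal of the 34 genes. Its peak (III, 5080737 to 5081006) had a signal of 107.3 and a score of 1000 in the main list, the 205th highest of 1419. At this place the own ranked list of replicate 1 gave a signal of 36.8 and a score of 296, and that of replicate 2 a signal of 68.5 and a score of 1000. Of the peaks in these 2 lists, 98.8% and 99.6% had a lower signal, so the peak was near the top in both, although it passed the threshold in replicate 2 alone. The summit lay 852 bp upstream of cox-6A, the most distant of the 7 thresholded summits, and inside an annotated small non-coding RNA gene on the other strand. No other protein-coding window held it. Of the 52 stretches of 50 bp within 50 bp of the summit, 18 occur once in the genome, so part of this sequence is shared with other places and the origin of reads there is uncertain.

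cox-11, which helps to deliver copper to complex IV, had a signal of 78.9 and a score of 1000 (IV, 13243823 to 13244092). Replicate 1 gave a signal of 23.5 with a score of 179, and replicate 2 a signal of 56.6 with a score of 733. Of the peaks in the own lists, 99.3% were lower in replicate 2 and 88.9% in replicate 1. Its summit lay 366 bp upstream of cox-11 in a coding exon of JC8.4, a gene on the same strand that ends 119 bp before cox-11 begins. The 5' end of JC8.4 was nearer, at 283 bp, but the summit lay downstream of it and past the end of the window of JC8.4. The conservative list did not hold the peak, whose score in the ranked list behind it was 822.

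cox-5A, another subunit of complex IV, had a signal of 77.3 and a score of 850 (III, 12905011 to 12905280), close to the lowest score listed. In the ranked list behind the conservative list its score was 933. At this place replicate 1 gave a signal of 43.05 and a score of 715, while replicate 2 gave 36.4 and 66. Of the peaks in these own lists, 99.3% and 94.1% had a lower signal. The summit lay 345 bp upstream of cox-5A, in sequence with no annotated gene, and in no other window.

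cox-5B, also a subunit, was the only one of the 34 genes with 2 thresholded summits, both in the conservative list as well. The first (I, 9788576 to 9788845) lay 14 bp upstream of the 5' end and had a signal of 89.6 and a score of 1000. Replicate 1 gave it a signal of 43.3 and a score of 629, and replicate 2 gave 39.4 and 299. The second (I, 9787887 to 9788156) lay 703 bp upstream, with a signal of 78.3 and a score of 940. There replicate 1 gave a signal of 31.6 and a score of 245, and replicate 2 gave 43.9 and 502. The scores of the replicates were thus in opposite order at the 2 summits, and none of the 4 reached the threshold. Of the peaks in the own lists of replicates 1 and 2, 99.4% and 96.1% had a lower signal than the first. For the second these were 97.5% and 97.7%, so both replicates ranked it about equally. The second summit was nearer to tba-1, an alpha-tubulin gene on the other strand whose 5' end is 398 bp away. A shorter transcript of cox-5B begins 284 bp downstream of the gene's 5' end, which puts the first summit 298 bp upstream of it.

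The other 11 genes of complex IV had no thresholded summit. The strongest of them were cox-15, for an enzyme of heme A synthesis, and cox-17, for a copper chaperone. cox-15 had a signal of 68.8 and a score of 778, with the summit 197 bp downstream of the 5' end in its own coding exon. At this place replicate 1 gave 20.5 with a score of 60, and replicate 2 gave 45.03 with a score of 493. cox-17 had a signal of 45.3 and a score of 359 at a summit 513 bp upstream, in a coding exon of ubc-20. That gene encodes a ubiquitin-conjugating enzyme and ends 103 bp before cox-17 on the same strand. The replicates gave 23.05 with a score of 88 and 22.5 with a score of 77. Both genes thus had ranked peaks in both replicates, with scores far below 830 in each.

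Of the remaining genes of complex IV, the subunit genes cox-4 and cox-6C had signals of 26.2 and 31.2. The assembly genes cox-10, cox-16, cox-18 and cox-19 had signals from 17.99 to 25.6. cox-6B, cox-7C and cox-14 had no ranked peak in the window, in the list of both replicates or in either own list. The cox-6B record starts with a transcript that begins 86539 bp upstream of the other one. At the 5' end of that other transcript there was a ranked peak 162 bp upstream with a signal of 37.3 and a score of 220, not in the main list.

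**Figure D2:**
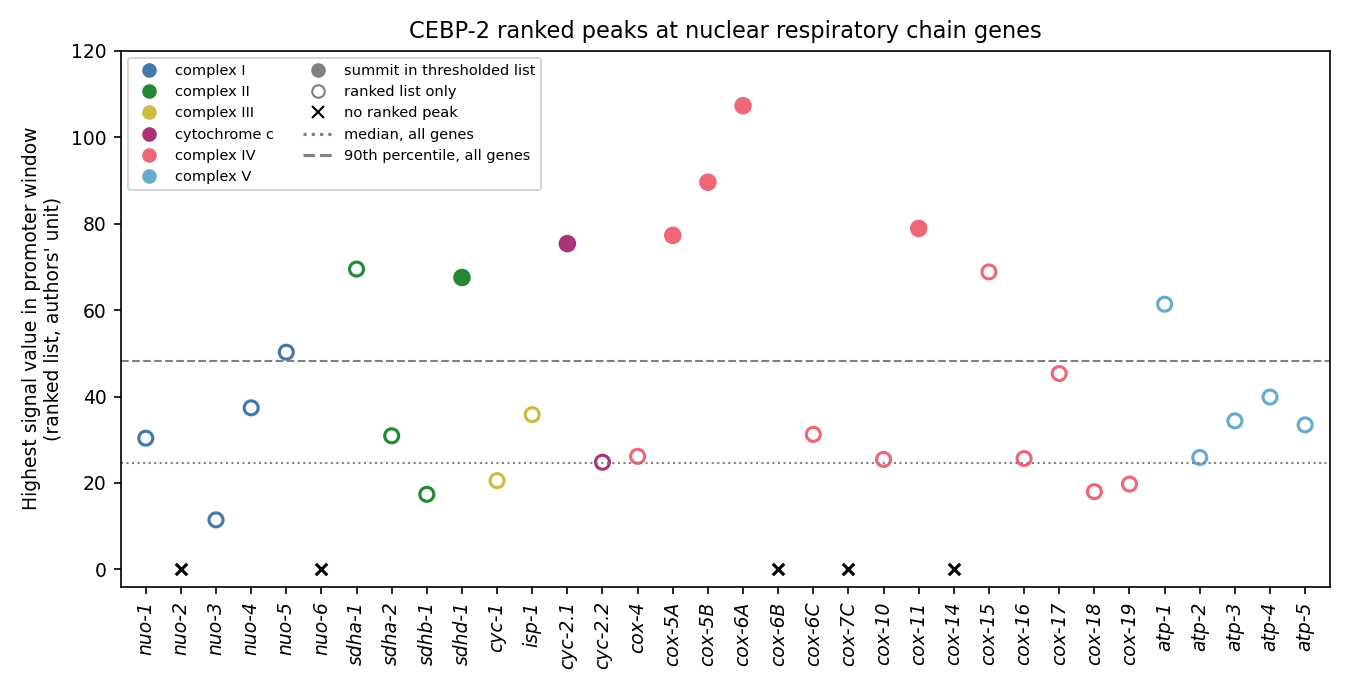
Highest signal value of a ranked peak in the promoter window (authors' unit, list of both replicates) for each of the 34 genes, coloured by complex. Filled points have a summit in the main thresholded list, open points only in the ranked list, and crosses mark the 5 genes with no ranked peak. The dotted and dashed lines are the median (24.7) and the 90th percentile (48.2) over all nuclear protein-coding genes, with genes without a peak counted as 0.

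Cytochrome c is encoded by cyc-2.1 and cyc-2.2, and the first of them had a thresholded summit. The peak at cyc-2.1 (IV, 4748820 to 4749089) had a signal of 75.4 and a score of 1000. Replicate 1 gave a signal of 38.1 and a score of 694, and replicate 2 gave 39.5 and 279. In both replicates the summit lay 1 bp from that of the main list. The summit was 57 bp downstream of the 5' end, in an intron of the longer transcript, and 506 bp upstream of the shorter transcript. A stronger peak lay just outside the window, 1063 bp upstream (IV, 4749940 to 4750209), with a signal of 198.6 and a score of 1000. Replicates 1 and 2 each gave that peak a score of 1000, with signals of 69.8 and 129. It lay in the windows of rpl-20, for a protein of the large ribosomal subunit, and Y17G9B.5. cyc-2.2 had a signal of 24.8 and a score of 70, with a peak in replicate 2 (21.6, score 30) and none in replicate 1.

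Complex II, succinate dehydrogenase, had 1 thresholded gene of 4, against 2.36% of all genes. sdhd-1, for a membrane anchor subunit, had the weakest thresholded peak of the 34 genes (II, 11049659 to 11049928), with a signal of 67.5 and a score of 858. Replicate 1 had a signal of 14.6 and a score of 84 with the summit 52 bp away, and 50.6% of the peaks in its list were lower. Replicate 2 had 54.3 and 493, with 99.2% lower. The peak thus stood out in replicate 2 and was near the middle of the list in replicate 1. The conservative ranked list gave it a score of 348. The summit lay 119 bp downstream of the 5' end, in a coding exon of sdhd-1, and also in the windows of F33A8.4 and of ilkp-1, which starts 461 bp from the summit on the other strand.

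sdha-1, for the flavoprotein subunit of complex II, had a higher signal than sdhd-1, 69.5, but a score of 718, so it was not in the main list. Replicate 1 gave 21.8 with a score of 143 and replicate 2 gave 35.5 with a score of 219. Its summit lay 158 bp upstream, inside the snoRNA gene D2021.6. The second flavoprotein gene, sdha-2, had a signal of 30.9 and no peak in either own list. sdhb-1, for the iron-sulfur subunit, had 17.4 and none in either.

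Among the 34 genes, none of complexes I, III and V had a thresholded summit in the window, where 2.36% of all genes had one. Complex V came closest with atp-1, for the alpha subunit of the ATP synthase, whose summit 7 bp upstream of the 5' end had a signal of 61.4 and a score of 810. The replicates gave 20.5 with a score of 81 and 40.6 with a score of 494. A second atp-1 peak, 456 bp downstream and so outside the window, was in the main list with a signal of 68.9 and a score of 836, and lay in a coding exon of atp-1. Replicate 2 had it (48.96, score 788), and replicate 1 had no ranked summit within 150 bp. The scores of 810 and 836 lie on either side of the lowest listed score. In the main list, atp-1 was thus decided by the threshold and the window. The conservative ranked list gave the first peak a score of 588, and the conservative list did not hold the second. Both summits also lay in the window of mcrs-1, on the other strand, whose 5' end is 183 bp from the first.

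The other genes of complex V had signals from 25.9 to 39.9. The highest of these was at atp-4, 29 bp downstream of the 5' end in its coding exon, with a score of 587. Replicate 2 gave it 26.7 with a score of 530, and replicate 1 had no peak there. The peak also overlapped alh-4, which ends 96 bp before atp-4 on the same strand, and its summit lay in the window of T05H4.11. atp-2, for the beta subunit, had 25.9, atp-3 had 34.4 and atp-5 had 33.4.

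Complex I, NADH dehydrogenase, had 4 of 6 genes with a ranked peak, where 76.6% of all genes had one. The highest signal was 50.3 at nuo-5, 465 bp upstream with a score of 413, in a coding exon of Y45G12B.2. That gene ends 105 bp before nuo-5 on the same strand. At the summit 465 bp upstream, replicate 1 gave 12.8 with a score of 20 and replicate 2 gave 31.1 with a score of 68. A second nuo-5 summit in the list of both replicates, 15 bp upstream, had a signal of 48.2 and a score of 425. nuo-4, nuo-1 and nuo-3 had signals of 37.4, 30.4 and 11.5. nuo-2 and nuo-6 had no ranked peak in the list of both replicates, although replicate 1 alone listed one at nuo-2 (18.5, score 20) and replicate 2 alone one at nuo-6 (27.9, score 74). For complex III, isp-1 had 35.8 with a score of 191, and cyc-1 had 20.6 with a score of 150.

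**Figure D3:**
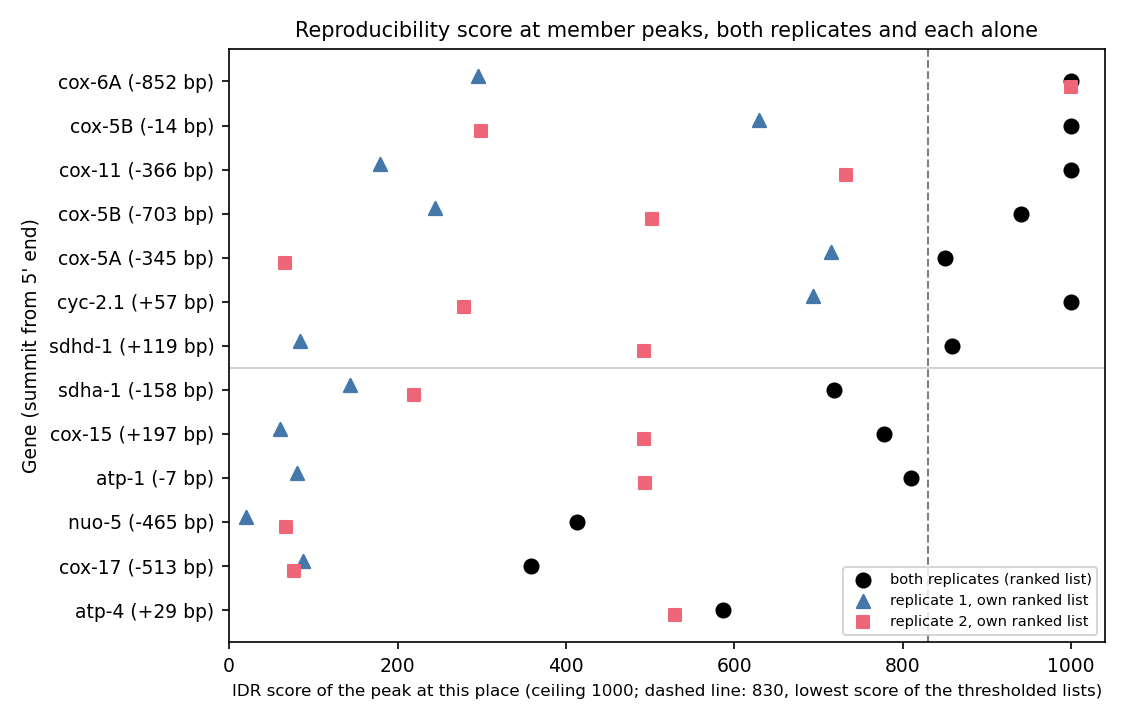
Score of the peak in the list of both replicates (black) and of the peak within 150 bp in the own ranked list of replicate 1 (triangles) and replicate 2 (squares), for the 7 thresholded peaks (above the line) and the 6 next genes by signal. The dashed line is the lowest score of the thresholded lists, 830, which 1 replicate score of the 7 peaks passes (cox-6A in replicate 2, 1000). At atp-4 replicate 1 had no peak.

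Each of the 7 thresholded peaks had a ranked peak within 150 bp in both replicates, but the scores within each replicate ranged from 84 to 715 in replicate 1 and from 66 to 1000 in replicate 2. Replicate 1 had the higher score at cox-5A, cyc-2.1 and the nearer summit of cox-5B, and replicate 2 at the other 4 peaks. These scores come from lists made separately for each replicate, so their levels are not read as a difference between the replicates. Apart from cox-6A in replicate 2, none of these peaks passed the threshold in the list of a single replicate. When genes were ranked by their highest signal within each replicate's own ranked list, 5 of the 34 (14.7%) were in the top 10% of all genes in both replicates, against 3.87% of all genes. They were cox-5A, cox-5B, cox-6A, cox-11 and cyc-2.1. In replicate 1 there were 7 such genes, with nuo-5 and cox-17 besides these, where nuo-5 owed its place to another summit, 16 bp upstream (30.8, score 351). In replicate 2 there were 8, with sdhd-1, sdha-1 and atp-1. The replicates share the strain and the transgene, and their lists are the same data as the main list, so this is not independent of it.

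In the ranked lists, which hold the thresholded peaks too, a ranked peak of any strength lay in the window of 29 (85.3%), against 76.6% of all genes. The median of the highest signal was 34.4 over those 29 and 29.8 over the 15296 genes of the genome with a ranked peak. In the own ranked lists the medians were 20.5 against 15.9 in replicate 1 and 22.9 against 22.3 in replicate 2. These rest on the 19 genes with a peak in replicate 1 (55.9%, against 48.7% of all genes) and the 25 in replicate 2 (73.5%, against 58.4%). The medians of the respiratory chain genes with a peak were thus above those of all genes in each list, only slightly in replicate 2, which was not tested. In replicate 1 the lower quartiles were 15.7 against 12.3 and the upper quartiles 27.1 against 20.6. In replicate 2 the lower quartiles were about equal, 17.1 against 17.2, and the upper quartiles were 36.4 against 28.5. In the list of both replicates the lower quartiles were 25.6 against 21.3 and the upper quartiles 67.5 against 40.1. There, 10 of the 34 genes (29.4%) were above the 90th percentile of all genes, 48.2. These were the 6 thresholded genes with sdha-1, cox-15, atp-1 and nuo-5. Neither replicate had a ranked peak at 7 of the genes (20.6%, against 28.9% of all genes).

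The summits had no common position. In the main list, 2 of the 7 lay more than 500 bp upstream, 3 within 500 bp upstream and 2 downstream of the 5' end. Over all genes, 35.5%, 48.6% and 15.9% of 496 such pairs of gene and summit lay in these 3 parts. Among all 56 ranked summits of the 34 genes, the median position was 461.5 bp upstream, against 389 bp upstream over all genes. Almost all peaks are 270 bp wide with the summit in the centre (98.9% of the main list), so the position of a summit is no finer than the placing of that fixed window. By chromosome, 1 of the 10 genes on I, 1 of 5 on II, 2 of 7 on III, 2 of 6 on IV, none of 5 on V and not the 1 on X had a thresholded summit. Over all genes the share ran from 1.44% on V to 3.51% on IV.

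**Figure D4:**
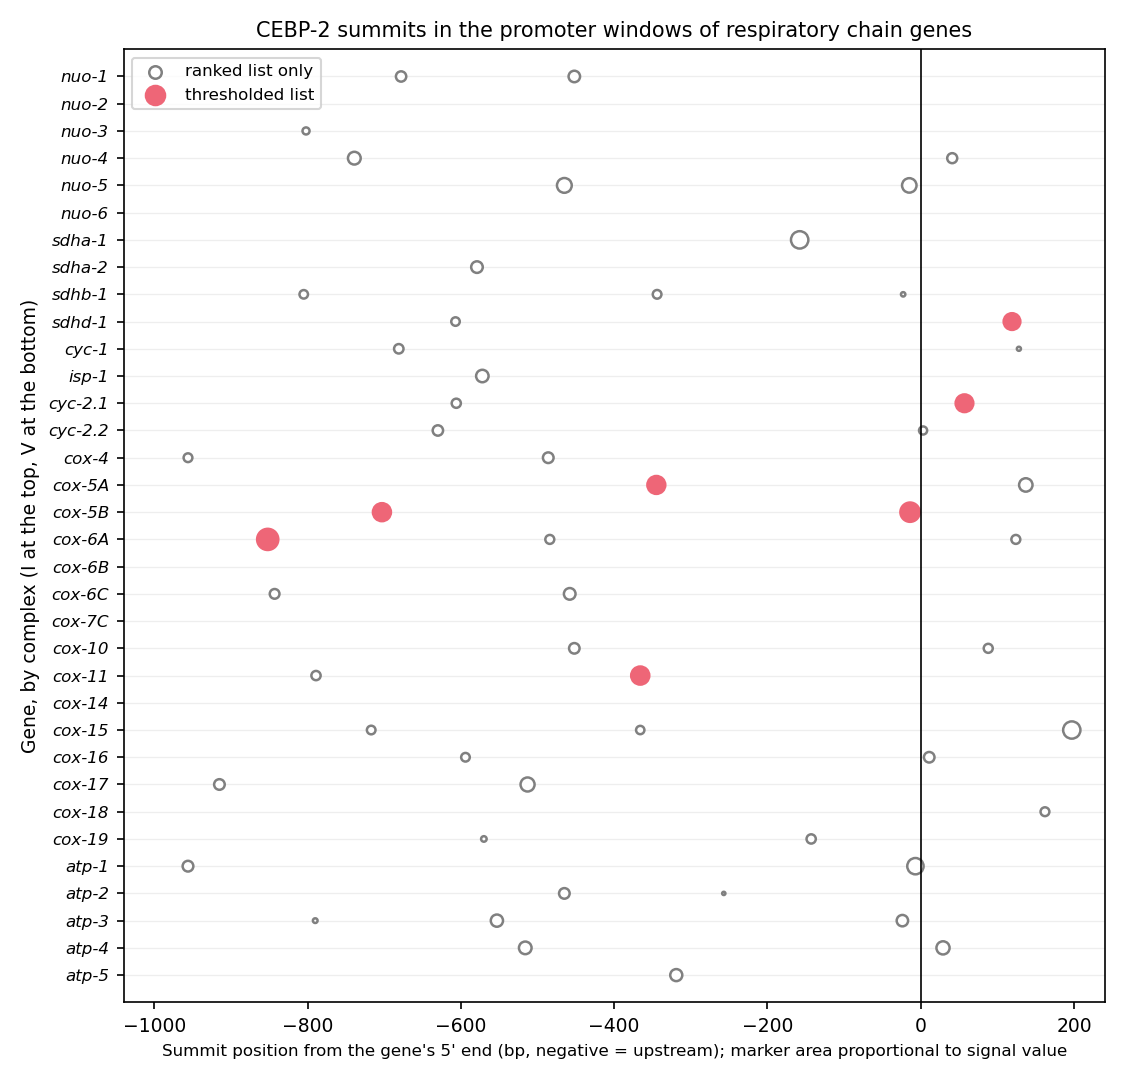
Position of every ranked summit in the promoter windows of the 34 genes, in bp from the 5' end with upstream negative. Red points are in the main thresholded list (7 summits), open points only in the ranked list, and the area of a point is proportional to the signal value. The red points lie from 852 bp upstream to 119 bp downstream.

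Sequences of bZIP sites were looked for on both strands within 50 bp of the 7 summits and in the promoters, taken from 250 bp before the 5' end to 50 bp after it. The C/EBP-type sequences were TTGCGCAA, TTACGTAA, TGATGCAA, TGACGCAA and TTGCATAA, and the E-box CACGTG was added. None of the 6 was found at the 7 summits. Over all 1419 summits of the main list the shares ran from 0.0705% for TTACGTAA to 3.31% for CACGTG, which are low rates to look for in 7 summits. In the promoters, TTGCATAA was found at cyc-1 and no other of the 6 at any of the 34 genes, where 1.84% of all promoters hold TTGCATAA and 5.82% hold CACGTG. The median GC content was 47.5% at the 7 summits and 48.5% at all summits of the main list, while the promoters had 35.0% and 34.3% over all genes. The summits differed widely, from 34.7% at cox-5A to 59.4% at the distant summit of cox-5B.

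Genes of the same complexes with other kinds of symbol gave 2 further thresholded genes. Of 19 other subunit genes, among them gas-1, mev-1, the ucr, asb and asg genes, nduf-9 and nduf-2.2 of complex I had a summit of the main list, both also in the conservative list. Of 19 genes for assembly factors and partners of the chain, such as sco-1, the adenine nucleotide translocators and the coq genes of ubiquinone synthesis, none did. The share over all genes was 2.36%, as above. The median of the highest ranked signal was 34.7 for the subunits and 41.7 for the assembly and partner genes. Each is over the 17 genes of its set with a ranked peak. The medians of the 34 genes and of all genes, taken likewise, were 34.4 and 29.8. A median above that of all genes was thus not particular to the 34.

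nduf-9 had the highest signal of these genes and of the 34, and was the one gene thresholded in both own lists. Its peak (III, 3249130 to 3249399) had a signal of 118.6 and a score of 1000, with 45.4 and a score of 910 in replicate 1 and 80.0 and a score of 1000 in replicate 2. The summit lay 690 bp upstream, and the peak overlapped the microRNA gene cel-mir-4936 and the 3' part of Y53G8AL.4. nduf-2.2 had a signal of 95.6 and a score of 1000 (III, 6464305 to 6464574), with 35.6 and a score of 448 in replicate 1 and 51.6 and a score of 740 in replicate 2. Its summit lay 782 bp upstream in the non-coding RNA gene T26A5.10, and was nearer to dlc-1, for a dynein light chain, at 661 bp. Both summits are printed here to show the non-coding RNA genes at or beside them, on the strand of the named gene, again with annotated exons in capitals.
nduf-9, chrIII:3249215-3249315, minus strand: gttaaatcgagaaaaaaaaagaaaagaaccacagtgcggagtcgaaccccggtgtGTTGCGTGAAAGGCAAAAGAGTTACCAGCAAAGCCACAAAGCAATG
nduf-2.2, chrIII:6464390-6464490, plus strand: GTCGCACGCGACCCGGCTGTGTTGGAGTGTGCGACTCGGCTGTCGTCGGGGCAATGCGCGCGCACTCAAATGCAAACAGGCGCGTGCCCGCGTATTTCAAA
The first holds TCGAACCC, which reads GGGTTCGA on the other strand, a sequence of the box B element inside tRNA genes. It was searched for after the data had been seen. It was at none of the 7 summits of the 34 genes and within 50 bp of 51 of the 1419 summits of the main list (3.59%).

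The mitochondrially encoded subunits could not be described, since none of the lists holds a peak on mitochondrial DNA. One more gene, cox-10 for heme O synthase, had a thresholded peak further upstream than the window. This peak (II, 12678190 to 12678459) had a signal of 95.9 and a score of 1000. Its summit lay 1629 bp upstream, within the windows of Y38E10A.22 and Y38E10A.24. The summit was in annotated exons of Y38E10A.31 and of another gene without a symbol. Replicate 1 gave this peak 39.9 with a score of 648 and replicate 2 gave 57.5 with a score of 960.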

How the data were processed

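Peak lists of chromatin immunoprecipitation in 2 biological replicates were analysed. Reads were aligned to ce11 for each replicate, per the file headers. Peaks were ranked by irreproducible discovery rate and thresholded, for both replicates together and for each alone, also per the file headers. A further input of the thresholded lists is not named there. Which aligner and peak caller were used is not given in the sources used here. Each peak's signal value (unit not stated), the score and the −log10 of the global rate are the authors' deposited values. Depth is unknown.

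Genes came from Ensembl release 115 (WBcel235), and chromosome lengths were checked against the peaks. The ranked list that holds all 1419 main peaks was used. A summit counted for each gene whose window held it, and peaks of a replicate within 150 bp counted as the same place. The assignment was tested on simulated peaks. Genes with a thresholded summit, the 6 next by signal and those without a peak are named. Members and lists were chosen with earlier results of these data known. No test was made, since 1 group of 2 samples allows none between conditions. The sequence at the cox-6A summit is not reported here. Alternatives changed the window, the lists and the assignment of summits. Python 3.11.15, pandas 2.3.3 and numpy 2.4.6 were used.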

Additional observations from a re-analysis of the deposited data

How the results depend on the processing

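Of 17 alternative values, 10 were counts that stayed within 1.5 times the count reported. The count of 6 genes with a main-list summit was 5 without peaks at tRNA, snoRNA and snRNA genes (cox-6A lost, against 2.03% of all genes), 4 among peaks above the median signal (1.44%), and 7 with 2000 bp upstream (3.8%). With 500 bp to either side it was again 6, but with atp-1 in place of cox-6A (1.96%). It was 3 with a window of 500 bp upstream only (cox-11, cox-5A and cox-5B, against 1.19% of all genes). By the own list of 1 replicate, that is without replicate 1 or without replicate 2, it ranged from 0 to 1 (0.556% and 0.791%). The count of 4 in the conservative list was 2 with 500 bp upstream only (1.07%). The median of the highest ranked signal, 34.4, was 36.6 in the ranked list behind the conservative list, 30.4 with 500 bp upstream only and 31.1 with genes without a peak counted as 0. The same settings gave 30.4, 24.5 and 24.7 over all genes. All counts rest on few genes, without a control and at unknown depth.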
